A study of Arabidopsis thaliana with 16 samples.

Results

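Transcript levels of wild-type Arabidopsis thaliana seedlings raised with UV-B were compared with those of seedlings raised in white light alone. Every annotated entry that the authors had tested between these groups was taken, 20595 of 69252 entries, and 19344 of them were protein-coding genes. The study asked how UV-B affects DNA methylation and gene expression, and its 16 samples comprise 8 RNA-seq and 8 bisulfite sequencing libraries. The plants compared here were Col-0, the Columbia-0 wild type with no transgene or mutation. Both groups grew on Murashige and Skoog agar with sucrose and were frozen whole on day 10. The UV-B group received 1.5 mE of UV-B at 315 nm together with 60 mE of white light from day 1 after sowing, so its exposure was chronic and not a pulse. The labels of the control group name no UV-B treatment. Each group had 2 libraries, numbered 1 and 2 in the labels, and the deposited table holds 1 pooled value per group. Nothing in the labels says whether they came from separate cultures, so the authors' p-values may measure technical spread. The UV-B-treated libraries of the drm1-2 drm2-2 double mutant and the bisulfite libraries were not analysed here.

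UV-B is perceived by UVR8, a protein whose dimers split into monomers on absorbing it. Monomeric UVR8 binds the ubiquitin ligase COP1, and this binding stabilises HY5, a bZIP transcription factor that acts with its homologue HYH. Their targets make flavonoids and sinapate esters that absorb UV-B, protect the chloroplast and restrain elongation, and the RUP proteins return UVR8 to its dimer.

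Expression is given as FPKM, fragments per kilobase of transcript and unit of library size, so levels of different genes can be set side by side. The table does not state this unit, which is inferred from its Cufflinks layout and its values. Since each group has 1 pooled value, no spread between replicates can be given, and the q-values of the authors' deposited table are the only measure of error. In what follows "rose" and "fell" are used only of entries with q under 0.05 in the authors' deposited table. Entries that did not pass are given without such a verb, as are some that did. By that rule 793 entries changed, 3.85% of those tested, of which 420 rose (2.04%) and 373 fell (1.81%). The log2 ratio of UV-B to white light had a median of 0.00 over all tested entries, with quartiles of -0.17 and 0.15. Most changes were moderate, since 246 of the 793 were at least 2-fold and 29 at least 4-fold, and none had a log2 ratio smaller than 0.47 in size. The smallest p-value of the authors' deposited table was shared by 413 entries, all with q = 0.00249, and every rise or fall named here lies between that value and 0.05.

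The chance of a call depended on expression. Calls made up 0.476% of entries that stayed under 2 FPKM and 9.01% of those between 100 and 1000 FPKM. From isolated transposon entries, depth was estimated roughly at 5660800 fragments per UV-B library and 14535300 per white-light library. Called entries under 2 FPKM had a median log2 ratio of 2.12 in size, against 0.69 between 100 and 1000 FPKM. Antenna protein genes reached 12362 FPKM in white light (LHCB1.3), and PYK10, a beta-glucosidase of the root, had 2151 FPKM in white light and 1797 FPKM under UV-B, so shoot and root were both present in each group.

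**Figure D1:**
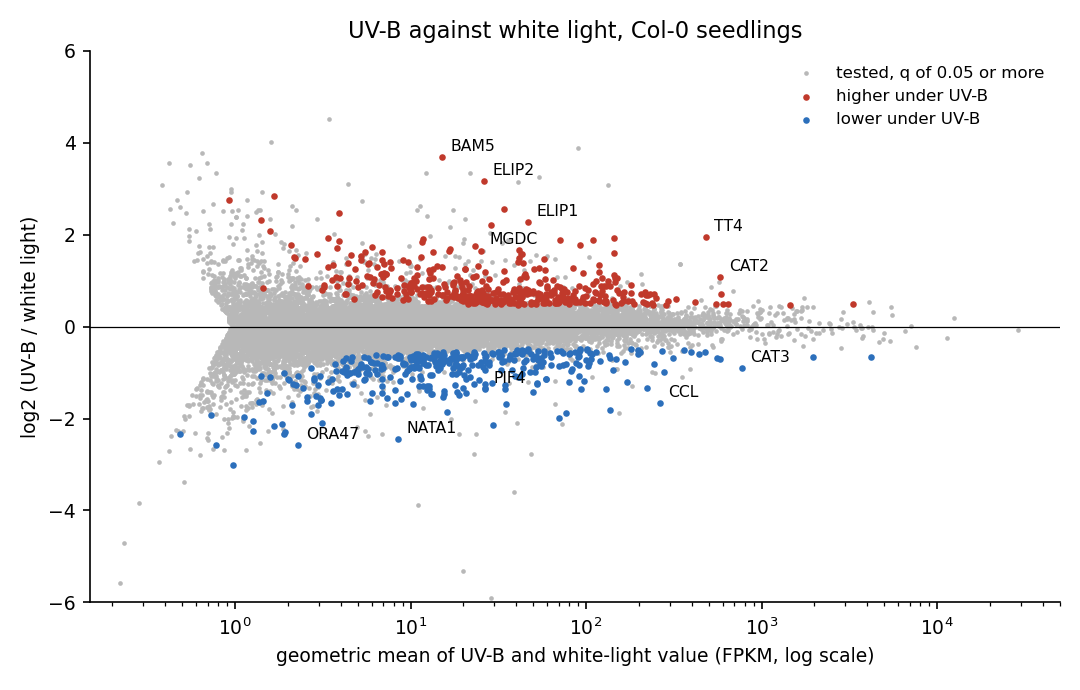
Each point is 1 tested entry, with the geometric mean of its values in FPKM on a log axis across and the log2 ratio of UV-B to white light up. Red entries rose, blue entries fell and grey entries had q of 0.05 or more; 205 entries listed at 0 in 1 group, 6 of them called, and 6 beyond a log2 ratio of 6 are not drawn.

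In the list of UV-B perception and signalling, the genes that rose included RUP2 and HYH and several genes for chloroplast proteins. Of 19 tested genes of this list, 7 rose and 0 fell, 17 had the higher value under UV-B, and the median log2 ratio was 0.42. The largest responses were in the chloroplast proteins ELIP2 (AT4G14690, chromosome 4, 8418242 to 8419325) and ELIP1 (AT3G22840, chromosome 3, 8084405 to 8085669), which bind pigments under strong light. ELIP2 had 8.82 FPKM in white light and 78.7 FPKM under UV-B, a log2 ratio of 3.16, and ELIP1 had 21.3 FPKM in white light and 103 FPKM under UV-B, a log2 ratio of 2.27. GPX7, a glutathione peroxidase of the chloroplast, rose from 6.11 to 22.8 FPKM. CRY3, a cryptochrome of the organelles, rose from 14.01 to 26.9 FPKM, a smaller change than that of either ELIP gene. RUP2 (AT5G23730, chromosome 5, 8005097 to 8006630), which returns UVR8 to its inactive dimer, had 15.8 FPKM in white light and 29.1 FPKM under UV-B, a log2 ratio of 0.88. The log2 ratio of HYH (AT3G17609, chromosome 3, 6023844 to 6024710) was 0.78. SIG5, a sigma factor that directs the RNA polymerase of the chloroplast to its promoters, rose from 28.3 to 45.3 FPKM (q = 0.00458 in the authors' deposited table).

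UVR8, COP1, HY5, RUP1 and the SPA genes did not pass the test, unlike RUP2 and HYH. UVR8 (AT5G63860, chromosome 5, 25554416 to 25559499) had 42.6 FPKM in white light and 37.2 FPKM under UV-B (q = 0.805 in the authors' deposited table), and COP1 (AT2G32950, chromosome 2, 13977881 to 13983609) had 18.9 FPKM in white light and 22.3 FPKM under UV-B (q = 0.682 in the authors' deposited table). HY5 (AT5G11260, chromosome 5, 3593335 to 3595073) had a log2 ratio of 0.48 and RUP1 (AT5G52250, chromosome 5, 21216772 to 21218351), the relative of RUP2, had 7.73 FPKM in white light and 10.9 FPKM under UV-B (q = 0.184 in the authors' deposited table). RUP1 was the less abundant of the RUP pair in both groups. SPA1 to SPA4, which form complexes with COP1, had log2 ratios between 0.07 and 0.42, all higher under UV-B by value and none past the threshold. HYH was the more abundant of the HY5 pair in both groups, with 94.6 FPKM in white light and 162 FPKM under UV-B, against 26.8 FPKM in white light and 37.5 FPKM under UV-B for HY5.

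B-box proteins, zinc finger factors that act with HY5 or against it, moved in both directions. Of 20 tested members 1 rose and 2 fell, with a median log2 ratio of 0.06. BBX20 rose from 4.29 to 8.84 FPKM, while BBX28 fell from 33.5 to 21.1 FPKM and COL5 fell from 114 to 73.2 FPKM. BBX24, a negative regulator of UV-B signalling, had 195 FPKM in white light and 152 FPKM under UV-B (q = 0.233 in the authors' deposited table). None of 13 tested genes for phytochromes, cryptochromes, phototropin 2 and their partners changed, and 1 of them had an unadjusted p under 0.05 in the authors' deposited table. With 3.85% of all tested entries called, so small a list may hold no call. The blue light receptor genes CRY1 and CRY2 had log2 ratios of 0.04 and -0.02. PHOT1, the other phototropin gene, was listed at 82.5 FPKM in white light and 68.2 FPKM under UV-B with no test result in the authors' deposited table.

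Early flavonoid synthesis had the highest share of raised genes among the 59 lists examined. Those lists were chosen with earlier results of these data known, so the rank describes them and lends no support. Of 10 tested genes from chalcone synthase to the glycosylated flavonols, 9 rose and 0 fell, with a median log2 ratio of 1.64. The pathway starts with TT4 (AT5G13930, chromosome 5, 4488476 to 4500735), chalcone synthase, whose 246 FPKM in white light and 941 FPKM under UV-B made it the most abundant transcript of the list in both groups. TT5, chalcone isomerase, rose from 49.8 to 170.3 FPKM, and CHIL, a non-catalytic relative that assists chalcone synthase, rose from 83.6 to 252 FPKM. F3H, flavanone 3-hydroxylase, rose from 57.2 to 209.6 FPKM. These first steps thus rose by similar factors, with log2 ratios of 1.94, 1.77, 1.59 and 1.87.

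TT7, the hydroxylase that turns kaempferol-type into quercetin-type flavonoids, rose from 9.38 to 30.2 FPKM and stayed the least abundant enzyme transcript of the early steps. FLS1, flavonol synthase, rose from 73.7 to 281 FPKM, a log2 ratio of 1.93. Genes that attach sugars had smaller log2 ratios than the core enzymes. RHM1, which makes the rhamnose donor, rose from 74.7 to 190.4 FPKM. UGT78D2, a flavonoid 3-O-glucosyltransferase, rose from 34.95 to 84.0 FPKM, and UGT78D1, its rhamnosyl counterpart, rose from 45.4 to 91.5 FPKM. OMT1, a methyltransferase shared by flavonols and lignin, had 240.2 FPKM in white light and 298 FPKM under UV-B and did not pass (q = 0.362 in the authors' deposited table).

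In the branch that leads to anthocyanins, most tested genes also rose. Of 8 tested members 5 rose and 0 fell, all 8 had the higher value under UV-B, and the median log2 ratio was 1.38. UGT75C1, 3AT1 and 3AT2 were left out of this list because name and locus did not match. DFR, dihydroflavonol reductase, rose from 23.4 to 73.8 FPKM, and LDOX, the next enzyme, rose from 24.7 to 69.8 FPKM. The decorating enzymes UGT79B1, a xylosyltransferase, and 5MAT, a malonyltransferase, rose from 4.998 to 12.0 FPKM and from 3.11 to 9.65 FPKM. DTX35, a membrane transporter of the MATE family, rose from 57.7 to 95.4 FPKM. TT19, a glutathione transferase that carries anthocyanins, had a log2 ratio of 1.88 with 18.8 FPKM in white light and 69.1 FPKM under UV-B, as large as those of the core enzymes, but missed the threshold (q = 0.152 in the authors' deposited table). The TT19 locus overlaps another annotated entry.

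Among 18 tested regulators of flavonoids, 1 rose and 1 fell. MYB111, an activator of flavonol genes, rose from 3.05 to 8.84 FPKM. MYBL2, a repressor of anthocyanin genes, fell from 61.4 to 30.1 FPKM. The related flavonol activator MYB12 had 6.11 FPKM in white light and 8.53 FPKM under UV-B (q = 0.238 in the authors' deposited table). PAP1 and PAP2, MYB activators of anthocyanin genes, had log2 ratios of -0.30 and 2.93 from low levels, at most 3.93 FPKM, and neither passed. TT8, a bHLH partner of these MYB factors, had 0.740 FPKM in white light and 1.91 FPKM under UV-B (q = 0.0607 in the authors' deposited table), and its other partners EGL3 and TTG1 had log2 ratios of 0.01 and 0.03.

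**Figure D2:**
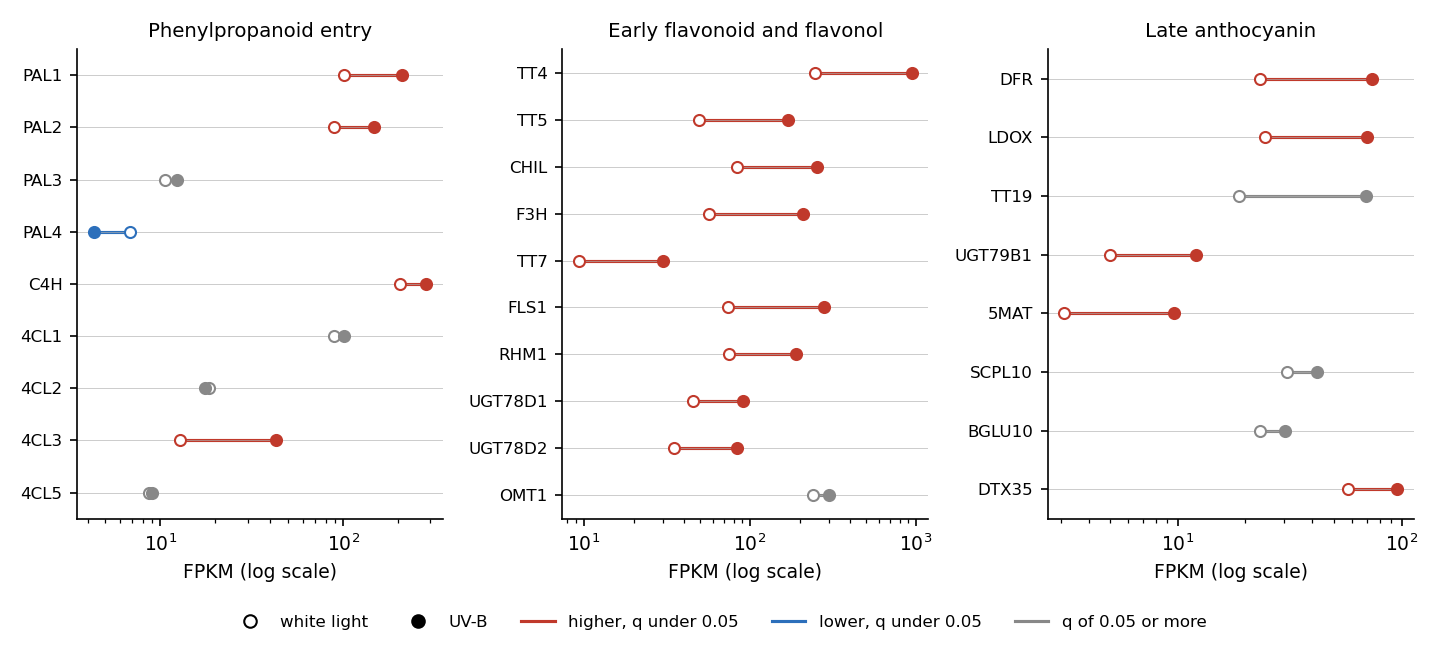
Each row is 1 gene, with its white-light value as an open circle and its UV-B value as a filled circle, in FPKM on a log axis, from phenylpropanoid entry (left) over early flavonoid steps (middle) to anthocyanin steps (right). Red lines mark genes that rose and blue lines those that fell; among the entry genes PAL4 fell while PAL1, PAL2, C4H and 4CL3 rose.

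Among phenylpropanoid genes that feed this pathway, copies of the same enzyme moved differently. Of 25 tested genes 7 rose and 1 fell, with a median log2 ratio of 0.17. Phenylalanine ammonia-lyase, the entry enzyme, is encoded by a small family. PAL1 rose from 101 to 210.2 FPKM and PAL2 from 89.0 to 148 FPKM, PAL3 had a log2 ratio of 0.22 without passing, and PAL4 fell by 0.65 on the log2 scale (q = 0.0332 in the authors' deposited table). C4H, the next enzyme, rose from 205 to 285 FPKM (q = 0.0308 in the authors' deposited table). Of the 4-coumarate ligases, 4CL3, the copy linked to flavonoids, rose from 12.7 to 42.8 FPKM, while 4CL1, 4CL2 and 4CL5, linked to lignin, had log2 ratios of 0.17, -0.07 and 0.05.

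Sinapate ester and lignin genes were mixed. The sinapate glucosyltransferases UGT84A1 and UGT84A2 both rose, from 3.94 to 12.1 FPKM and from 30.2 to 64.8 FPKM. SNG1, which moves sinapate onto malate to form the sunscreen sinapoyl malate, had 283 FPKM in white light and 232 FPKM under UV-B and did not pass (q = 0.459 in the authors' deposited table). CAD4, a cinnamyl alcohol dehydrogenase of lignin synthesis, rose from 114 to 197 FPKM, and its relative CAD5 had a log2 ratio of 0.14. HCT and CCOAOMT1, further lignin genes, had log2 ratios of 0.03 and 0.17 and did not pass.

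Over the whole family of UDP-glycosyltransferases, which attach sugars to small molecules, 11 of 50 tested genes rose and 1 fell, with a median log2 ratio of 0.23. Besides the flavonoid and sinapate enzymes, UGT74E2, which glucosylates the auxin indole-3-butyric acid, rose from 3.15 to 7.45 FPKM. UGT73C5, which inactivates brassinosteroids, rose from 20.8 to 36.6 FPKM. UGT76B1, which acts in salicylate-related defence, was the member that fell, from 22.1 to 14.8 FPKM (q = 0.0275 in the authors' deposited table). Of 13 tested ABCC transporters, which load conjugates into the vacuole, 4 rose and 0 fell. They were ABCC2, ABCC3, ABCC8 and ABCC10, with log2 ratios between 0.62 and 0.68, and ABCC1 had 23.0 FPKM in white light and 26.1 FPKM under UV-B without passing.

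Phosphate starvation genes gave the largest number of raised members of any list. The lists differ in size and were chosen with earlier results of these data known, so this rank also lends no support. Phosphate starvation genes respond to low phosphate by releasing phosphate, taking it up and replacing phospholipids with other lipids. Of 32 tested members 15 rose and 0 fell, 31 had the higher value under UV-B, and the median log2 ratio was 0.53. The medium was the same in both groups as far as the labels say, and phosphate was not measured in the data used here.

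Genes of lipid replacement were among those that rose. MGDC, a galactolipid synthase, rose from 14.3 to 44.8 FPKM, with the highest log2 ratio of the list, 1.65. SQD1 and SQD2, which make sulfolipid, rose from 89.6 to 135 FPKM (q = 0.00648 in the authors' deposited table) and from 55.3 to 97.0 FPKM. NPC4, a phospholipase C, rose from 2.28 to 5.74 FPKM, and PLDP2, a phospholipase D, rose from 3.34 to 5.42 FPKM (q = 0.0262 in the authors' deposited table). SRG3, a glycerophosphodiester phosphodiesterase, rose from 56.2 to 99.8 FPKM. DGD1 and DGD2, which make digalactolipid, had log2 ratios of 0.04 and 0.17 and did not pass.

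Several phosphatase and signalling genes of the list also rose. The phosphatase genes PEPC1 and PS2 rose from 24.5 to 73.8 FPKM and from 24.96 to 66.3 FPKM. PAP14, PAP17 and PAP10, purple acid phosphatases, rose from 8.35 to 19.5 FPKM, from 43.7 to 81.2 FPKM (q = 0.0159 in the authors' deposited table) and from 31.6 to 45.8 FPKM (q = 0.0236 in the authors' deposited table). RNS1, a ribonuclease, rose from 4.42 to 11.4 FPKM. IPS1, a non-coding RNA that binds the microRNA miR399, rose from 97.0 to 212 FPKM, and SPX1 and SPX3, phosphate sensors, rose from 79.4 to 126 FPKM and from 6.94 to 17.1 FPKM. AT4, the relative of IPS1, had 139.5 FPKM in white light and 190.5 FPKM under UV-B (q = 0.0806 in the authors' deposited table). Uptake genes of the list had smaller ratios, 0.11 for PHT1;1 and 0.45 for PHT1;4, neither of which passed, and the near-identical copies PHT1;1 and PHT1;2 may share reads. PHT1;5, a transporter gene outside the list and chosen after its values were seen, rose from 0.631 to 3.16 FPKM. PHR1 (AT4G28610), the transcription factor that controls the set, had 34.6 FPKM in white light and 37.4 FPKM under UV-B.

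Other nutrient lists had fewer calls than the phosphate list. Called were 4 of 28 tested nitrogen, 3 of 21 sulfur, 1 of 21 iron and 4 of 17 copper genes, against 3.85% of all tested entries. Of 28 tested nitrogen genes 2 rose and 2 fell. GLU1, the ferredoxin-dependent glutamate synthase of leaves, rose from 176 to 254 FPKM, while ASN1, an asparagine synthetase induced by darkness, fell from 10.8 to 4.41 FPKM and GDH1, glutamate dehydrogenase, fell from 51.6 to 36.1 FPKM. The nitrate transporter gene NRT2.1 rose from a low 0.355 to 2.38 FPKM, a log2 ratio of 2.75 (q = 0.00648 in the authors' deposited table). The nitrate reductase genes NIA1 and NIA2 had log2 ratios of -0.01 and 0.45 and did not pass.

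Of 21 tested sulfur genes 1 rose and 2 fell. APR2, which reduces activated sulfate, rose from 183 to 297 FPKM, and its copies APR3 and APR1 had log2 ratios of 0.47 and 0.05 without passing. SULTR2;1, a sulfate transporter, fell from 38.7 to 26.3 FPKM, and LSU3, a gene of sulfur deficiency, fell from 16.3 to 9.15 FPKM. Of 21 tested iron genes, NAS2, a nicotianamine synthase, alone passed, rising from 8.98 to 22.3 FPKM. The copper list showed the superoxide dismutases CSD1 and CSD2 rising, from 104 to 204 FPKM and from 39.3 to 75.5 FPKM, while the metal uptake genes ZIP2 and FRO4 fell from 45.8 to 29.8 FPKM and from 7.18 to 2.60 FPKM. FSD1, the iron superoxide dismutase that replaces the copper enzymes when copper is short, had 1859 FPKM in white light and 1832 FPKM under UV-B.

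Genes that remove reactive oxygen mostly had higher values, while 1 abundant gene, CAT3, fell. Of 27 tested members 6 rose and 1 fell, with a median log2 ratio of 0.19. By value 22 were higher under UV-B and 5 lower. The catalase genes moved apart. CAT2 (AT4G35090, chromosome 4, 16698267 to 16703504), the main leaf catalase, rose from 401 to 847 FPKM. CAT3 (AT1G20620, chromosome 1, 7142972 to 7146540) fell from 1060.2 to 565 FPKM, and CAT1 had 17.35 FPKM in white light and 17.2 FPKM under UV-B. CAT3 was thus the more abundant catalase transcript in white light and CAT2 under UV-B, whereas their sum was not tested.

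VTC2, which commits sugar nucleotides to ascorbate synthesis, rose from 161 to 264 FPKM, and SAPX, an ascorbate peroxidase of the chloroplast stroma, rose from 74.0 to 107 FPKM. VTE1, the tocopherol cyclase of vitamin E synthesis, rose from 19.4 to 40.0 FPKM. APX1, the abundant cytosolic ascorbate peroxidase, had 887 FPKM in white light and 1146 FPKM under UV-B and did not pass (q = 0.191 in the authors' deposited table). In the vitamin B6 and thiamine list 2 of 9 tested genes rose, and all 9 had the higher value under UV-B. PDX1.1 and PDX1.3, the catalytic subunits that make vitamin B6, rose from 85.3 to 178 FPKM and from 126 to 212 FPKM, while the inactive homologue PDX1.2 had a log2 ratio of 0.01. THI1, a thiamine synthesis gene, had 1689.9 FPKM in white light and 2277 FPKM under UV-B (q = 0.0767 in the authors' deposited table).

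Among glutathione transferases of the tau and phi classes 1 of 37 tested genes rose and 1 fell. ATGSTU17 rose from 54.3 to 131 FPKM and GSTF7 fell from 122 to 68.7 FPKM, while the abundant GSTF9 had a log2 ratio of -0.08.

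Among antenna genes of the chloroplast, LHCB4.3 and LHCB7 rose, while most members, among them abundant ones, had lower values. Of 21 tested antenna genes 2 rose and 2 fell, but 17 had the lower value under UV-B, and the median log2 ratio was -0.16. LHCB4.3 (AT2G40100, chromosome 2, 16745628 to 16747424), an antenna protein of photosystem II known from strong light, rose from 27.2 to 70.7 FPKM, and LHCB7 rose from 19.7 to 36.3 FPKM. LHCB1.4 (AT2G34430, chromosome 2, 14524607 to 14525918), of the main trimeric antenna, fell from 2464 to 1565 FPKM. LHCB1.2 (AT1G29910, chromosome 1, 10472280 to 10473502), a further copy of that antenna gene, fell with a log2 ratio of -0.67. The more abundant copies LHCB1.3 and LHCB1.5 had log2 ratios of -0.24 and -0.44 and did not pass, and since LHCB1 genes are near-identical their reads may be divided wrongly. Summed over the list, antenna transcripts came to 75899 FPKM in white light and 63081 FPKM under UV-B, a sum without a test.

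Photosystem and Rubisco genes changed little. Of 36 tested nuclear genes 3 rose and 0 fell, with a median log2 ratio of 0.07. The risers were the ferredoxin genes FD1, from 464 to 753 FPKM, and FED A, from 1228 to 1700.5 FPKM (q = 0.0344 in the authors' deposited table), and RBCS2B, a small subunit of Rubisco. RBCS1A, the most abundant small subunit gene, had a log2 ratio of 0.18, and these copies share much of their sequence. RCA, Rubisco activase, had 4689 FPKM in white light and 6343 FPKM under UV-B (q = 0.0697 in the authors' deposited table). No chloroplast-encoded entry changed among 64 tested, 54 of them protein-coding with a median log2 ratio of -0.01, and none of 11 mitochondrial entries. For these organelles 1 and 0 entries had an unadjusted p under 0.05 in the authors' deposited table, and mRNA libraries select polyadenylated transcripts, which organelle transcripts mostly are not.

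The pigment genes that passed were all higher under UV-B, where 2.04% of all tested entries rose. Of 18 tested carotenoid and precursor genes 3 rose and 0 fell, with a median log2 ratio of 0.29. PSY, phytoene synthase, rose from 244 to 356 FPKM (q = 0.0129 in the authors' deposited table), ZDS, a desaturase, rose from 62.0 to 91.9 FPKM (q = 0.0236 in the authors' deposited table), and BCH1, a hydroxylase that leads to zeaxanthin, rose from 42.2 to 67.3 FPKM. HEMA1, the first enzyme of tetrapyrrole synthesis, rose from 142 to 209 FPKM (q = 0.00819 in the authors' deposited table) and was the only called member among 20 tested chlorophyll genes. SEP2, a stress-enhanced relative of the ELIPs, rose from 130.3 to 205 FPKM (q = 0.0199 in the authors' deposited table), and NPQ4, the photoprotective PsbS subunit, had 1395 FPKM in white light and 1758 FPKM under UV-B without passing.

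Starch genes included the strongest increase among entries that passed the limits on level. BAM5 (AT4G15210, chromosome 4, 8666334 to 8669526), a beta-amylase, had 4.21 FPKM in white light and 54.1 FPKM under UV-B, a log2 ratio of 3.68. Of 36 tested genes 6 rose and 2 fell, with a median log2 ratio of 0.05. The chloroplast beta-amylases BAM3 and BAM1 rose from 132 to 246 FPKM and from 37.3 to 52.2 FPKM (q = 0.0388 for BAM1 in the authors' deposited table), as did BAM9, from 58.2 to 87.2 FPKM. GBSS1, which makes amylose, rose from 67.5 to 124 FPKM, and APL3, a subunit of ADP-glucose pyrophosphorylase, rose from 13.1 to 19.6 FPKM. In the other direction AMY3, a chloroplast alpha-amylase, fell from 36.6 to 19.1 FPKM, and SEX1, the kinase that starts starch breakdown at night, fell from 40.7 to 28.8 FPKM (q = 0.0366 in the authors' deposited table). The 2 genes that fell both act in breakdown, while those that rose include genes of synthesis and of breakdown. None of 13 tested genes of low energy, such as DIN10 and SEN1 with log2 ratios of 0.32 and -0.24, changed, against 3.85% of all tested entries.

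**Figure D3:**
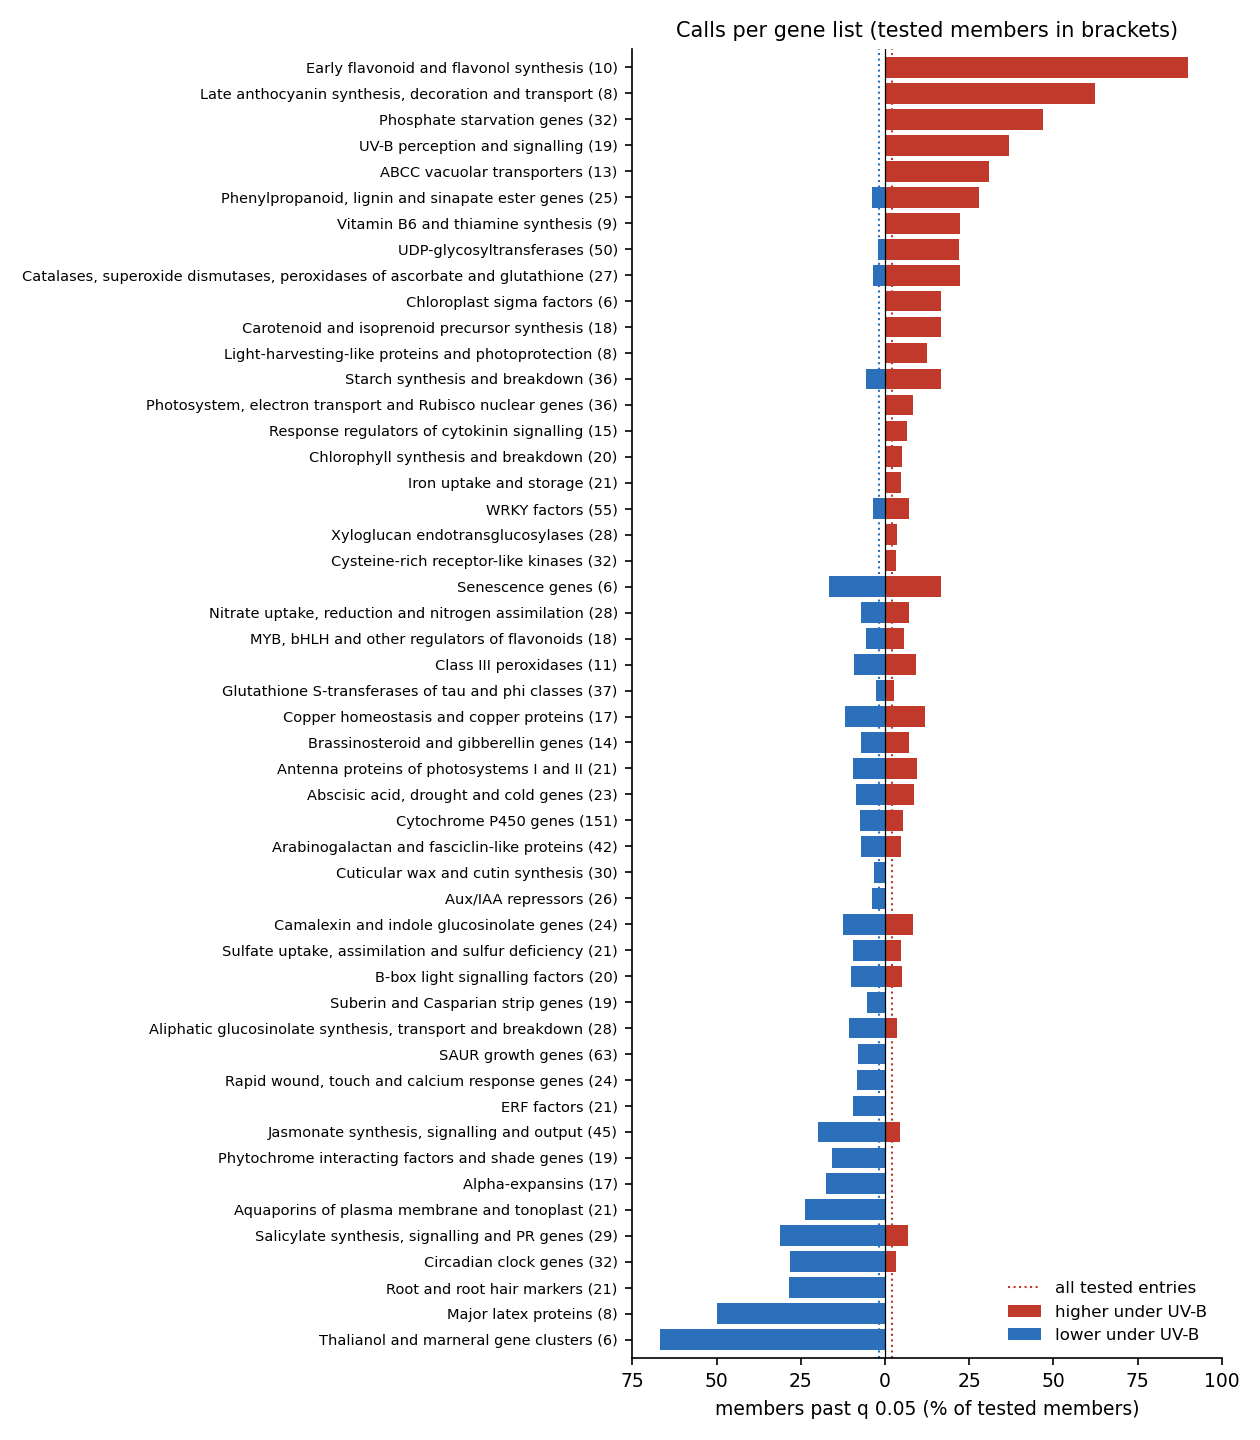
Bars give, for each gene list with at least 6 tested members and at least 1 call, the share of tested members that rose (red, to the right) and fell (blue, to the left); the number tested is in brackets. Dotted lines mark the shares over all tested entries, 2.04% and 1.81%, and early flavonoid genes stand at the top with 9 of 10 raised while thalianol and marneral genes stand at the bottom with 4 of 6 lowered.

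Growth-promoting genes leaned downward. Phytochrome interacting factors are bHLH proteins that drive elongation in shade and warmth. Of 19 tested members of that list 0 rose and 3 fell, 18 had the lower value under UV-B, and the median log2 ratio was -0.36. PIF4 (AT2G43010, chromosome 2, 17886101 to 17889087) had 42.8 FPKM in white light and 16.6 FPKM under UV-B, a log2 ratio of -1.37. By contrast, PIF5, its nearest relative, had 60.0 FPKM in white light and 51.6 FPKM under UV-B and PIF7 had 18.0 FPKM in white light and 13.99 FPKM under UV-B, neither of which passed. PRE1, a small bHLH protein that promotes elongation, fell from 10.3 to 3.36 FPKM, and HBI1, its partner factor, fell from 64.3 to 44.6 FPKM (q = 0.0250 in the authors' deposited table). The shade marker HFR1 and the auxin gene IAA19 had log2 ratios of -0.76 and -0.70 (q = 0.0799 and 0.123 in the authors' deposited table).

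In cell wall and auxin-response families most of the few calls were falls, where 1.81% of all tested entries fell and 2.04% rose. Of 63 tested SAUR genes, small auxin-induced growth genes, 5 fell and 0 rose, while 40 had the lower value under UV-B and 23 the higher. SAUR20 and SAUR21 (AT5G18030), neighbouring and near-identical, fell from 12.6 to 4.31 FPKM (q = 0.0388 in the authors' deposited table) and from 6.56 to 2.34 FPKM (q = 0.0236 in the authors' deposited table). Of 17 alpha-expansins, which loosen walls, 3 fell and 0 rose. EXPA8 fell with a log2 ratio of -1.43, and EXPA11 fell from 27.9 to 11.5 FPKM. EXPA1, the most abundant member, had 179 FPKM in white light and 133 FPKM under UV-B (q = 0.0948 in the authors' deposited table). The wall enzyme XTH31 went the other way and rose from 79.9 to 151 FPKM, the single call among 28 tested XTH genes. IAA2, the only called member of 26 tested Aux/IAA repressors, fell from 121 to 84.4 FPKM (q = 0.0332 in the authors' deposited table). For the XTH and Aux/IAA genes, 1 call each is near the share of 3.85% called over all tested entries.

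Within the arabinogalactan group the fasciclin-like FLA13 and FLA15 rose from 52.9 to 96.2 FPKM and from 17.3 to 26.1 FPKM, while AGP21 and AGP22 fell from 482 to 329.7 FPKM and from 24.2 to 13.7 FPKM. Gibberellin-regulated GASA genes also parted. GASA1 rose from 461 to 652 FPKM and GASA6 fell from 353 to 139 FPKM. Of 21 tested aquaporins 5 fell and 0 rose. PIP1C, PIP3 and PIP2;4 of the plasma membrane fell from 327 to 226 FPKM, from 539 to 357 FPKM and from 9.09 to 5.08 FPKM, and TIP2;1 of the vacuole fell from 706 to 441 FPKM.

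Most clock genes that passed the test fell. Of 32 tested members 1 rose and 9 fell, with a median log2 ratio of -0.27. LHY, a repressor expressed at dawn, rose from 58.5 to 88.5 FPKM (q = 0.00458 in the authors' deposited table), while its partner CCA1 had 62.2 FPKM in white light and 72.3 FPKM under UV-B and did not pass. The PRR repressors succeed each other through the day. PRR9 had 2.44 FPKM in white light and 0.779 FPKM under UV-B, PRR7 had 20.4 FPKM in white light and 8.002 FPKM under UV-B and PRR5 had 6.47 FPKM in white light and 2.54 FPKM under UV-B. These 3 fell, with log2 ratios of -1.65, -1.35 and -1.35, while PRR3 (-0.56) and TOC1 (-0.28), which come later, did not pass.

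GI, an afternoon gene, fell from 4.61 to 1.91 FPKM, and its partner FKF1 had 3.29 FPKM in white light and 1.35 FPKM under UV-B (q = 0.370 in the authors' deposited table). LUX, of the evening complex, fell from 18.7 to 10.3 FPKM, whereas its partners ELF3 and ELF4 had log2 ratios of -0.16 and -0.08. The flowering repressors CDF1 and CDF3 fell from 24.8 to 15.4 FPKM and from 21.2 to 12.7 FPKM, COR27 fell from 6.15 to 2.39 FPKM (q = 0.0129 in the authors' deposited table), and the abundant RNA-binding protein gene GRP7 fell from 742 to 458 FPKM. FT, the flowering signal, had 1.58 FPKM in white light and 3.35 FPKM under UV-B (q = 0.269 in the authors' deposited table). The labels give no time of day for freezing, so a difference in harvest time and an effect of UV-B cannot be told apart here.

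**Figure D4:**
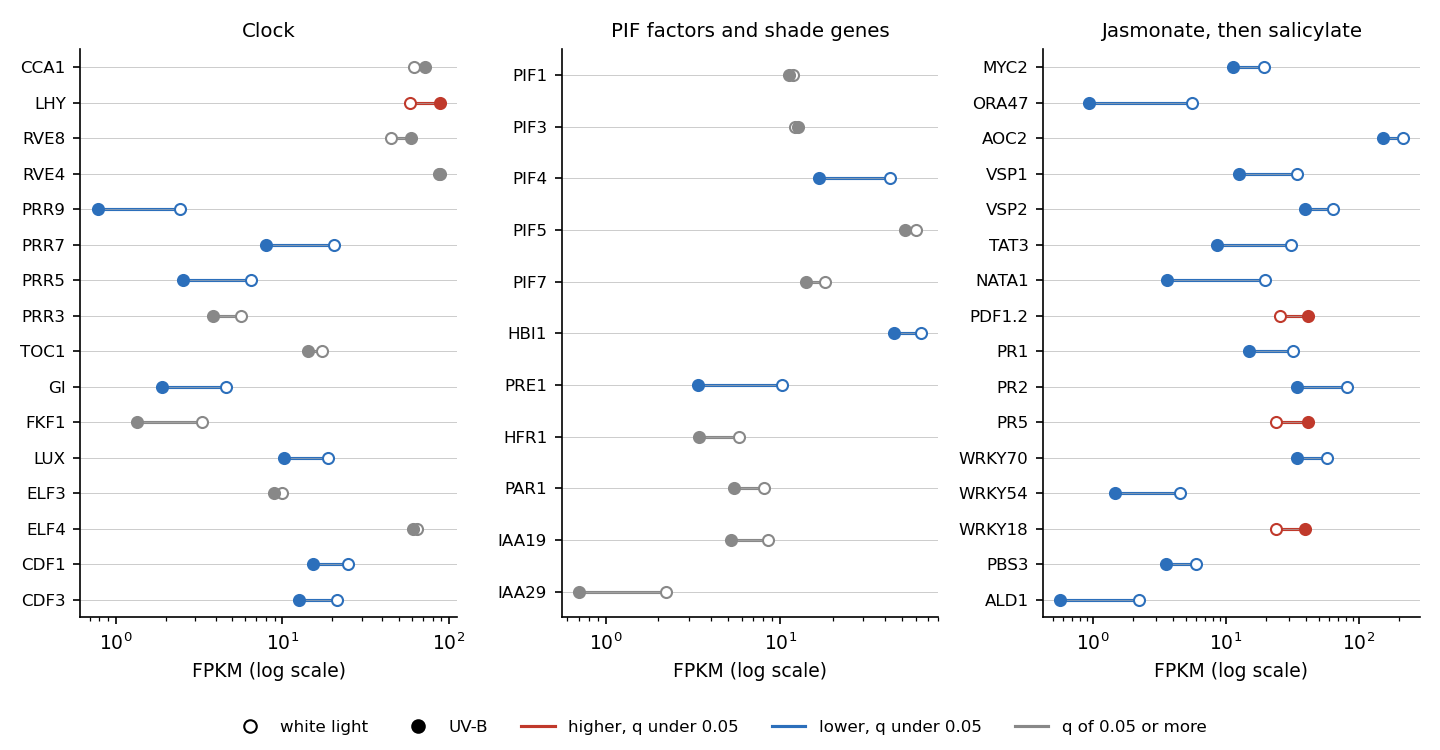
Open circles give white-light values and filled circles UV-B values in FPKM on a log axis for clock genes (left), PIF and shade genes (middle) and defence genes (right, jasmonate above salicylate). Blue lines mark falls, as for PRR9, PRR7 and PRR5 with filled circles to the left of open ones, and red lines mark rises, which are LHY, PDF1.2, PR5 and WRKY18.

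Defence genes fell more often than they rose. Of 29 tested salicylate genes 9 fell and 2 rose, with a median log2 ratio of -0.24. Among synthesis and regulation genes, PBS3, which couples isochorismate to glutamate, fell from 5.92 to 3.53 FPKM (q = 0.0213 in the authors' deposited table), while ICS1, EDS1, PAD4 and NPR1, earlier steps and the receptor, had log2 ratios of -0.14, -0.01, -0.06 and -0.10. ALD1, which makes pipecolate, fell from 2.23 to 0.569 FPKM (q = 0.0378 in the authors' deposited table), and DMR6, a salicylate hydroxylase, fell from 27.9 to 18.9 FPKM (q = 0.0288 in the authors' deposited table). The homologous factors WRKY70 and WRKY54 fell from 57.7 to 34.0 FPKM and from 4.50 to 1.46 FPKM (q = 0.00458 for WRKY54 in the authors' deposited table). WRKY18 moved the opposite way and rose from 23.61 to 39.6 FPKM. Of the PR outputs, PR1 and PR2 had log2 ratios of -1.10 and -1.24 while PR5 had 0.81, all called.

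Of 45 tested jasmonate genes 9 fell and 2 rose, 35 had the lower value under UV-B, and the median log2 ratio was -0.23. Synthesis changed at AOC2, allene oxide cyclase, which fell from 213 to 152 FPKM (q = 0.0455 in the authors' deposited table), while LOX2, AOS and OPR3 had log2 ratios of -0.15, -0.23 and -0.24. MYC2, the leading transcription factor, had a log2 ratio of -0.77, and its homologues MYC3 and MYC4 had 0.03 and -0.03. Among outputs, TAT3, a tyrosine aminotransferase, fell from 30.8 to 8.53 FPKM, TPS04, a terpene synthase, fell from 2.78 to 0.573 FPKM, and CLH1, a chlorophyllase, fell from 73.8 to 43.6 FPKM. VSP2, a vegetative storage protein, fell from 63.6 to 39.2 FPKM. CORI3, a cystine lyase induced by coronatine, rose from 66.1 to 98.3 FPKM (q = 0.00992 in the authors' deposited table). The JAZ repressors spread over log2 ratios from -1.60 for JAZ8 to 0.49 for JAZ4, and none passed.

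Among indole compounds CYP71A12, of camalexin and related synthesis, fell from 15.8 to 5.74 FPKM, and CYP79B3, which opens the indole pathway, fell from 48.3 to 32.5 FPKM (q = 0.0115 in the authors' deposited table). CYP81F4 and CYP81F2 both modify indole glucosinolates and went apart, the former falling from 111 to 75.1 FPKM and the latter rising from 17.3 to 26.5 FPKM, as did the methyltransferase IGMT2, from 6.71 to 12.5 FPKM. CYP71A12 has a near-identical neighbour, CYP71A13, so its reads may be shared. Of 28 tested aliphatic glucosinolate genes 3 fell and 1 rose. MYB29, an activator of the set, fell from 16.6 to 10.5 FPKM, and the transporter gene GTR1 rose from 31.3 to 44.7 FPKM (q = 0.0344 in the authors' deposited table). AOP2, annotated as a pseudogene in the authors' deposited table, fell from 11.0 to 7.003 FPKM.

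Of 24 tested genes of rapid wound, touch and calcium responses 2 fell, ERF104 from 64.9 to 41.2 FPKM and ERF13 from 6.30 to 3.01 FPKM (q = 0.0332 for ERF13 in the authors' deposited table). TCH3, a calmodulin-like touch gene, had 229 FPKM in white light and 310.3 FPKM under UV-B and did not pass. In the abscisic acid and cold list KIN2 fell from 148 to 64.8 FPKM and GOLS2, galactinol synthase, fell from 3.89 to 0.892 FPKM. HAB1, a phosphatase that represses abscisic acid signalling, rose from 23.0 to 33.4 FPKM, and ERD5, proline dehydrogenase, rose from 57.6 to 88.2 FPKM. The senescence genes SAG29, a sugar transporter, and SAG13 moved apart, from 6.17 to 12.8 FPKM and from 24.0 to 13.4 FPKM. Of 55 tested WRKY factors 4 rose and 2 fell, and WRKY30 rose from 1.50 to 4.16 FPKM (q = 0.0199 in the authors' deposited table).

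Genes of root tissue were lower, and this touches several groups above. Of 21 tested root and root hair markers 6 fell and 0 rose, 18 had the lower value under UV-B, and the median log2 ratio was -0.41. AIR1 (AT4G12550, chromosome 4, 7438812 to 7440116), a proline-rich protein gene of roots, had 61.8 FPKM in white light and 14.1 FPKM under UV-B, and AGP30 (AT2G33790, chromosome 2, 14293561 to 14295353), a root arabinogalactan protein, had 6.44 FPKM in white light and 1.51 FPKM under UV-B. TIP2;3, a root aquaporin, fell from 18.6 to 5.77 FPKM, and PRP1, a wall protein of root hairs, fell from 9.33 to 4.94 FPKM. The neighbouring root beta-glucosidase genes BGLU21 and BGLU22, which are near-identical, fell from 39.9 to 25.2 FPKM and from 26.0 to 16.9 FPKM. The tissue identity genes SHR and SCR had 7.97 FPKM in white light and 6.71 FPKM under UV-B and 12.4 FPKM in white light and 13.2 FPKM under UV-B, and the root hair genes RHD6 and EXP7 had log2 ratios of 0.04 and 0.13, none of which passed. Summed over the list, root markers came to 2569.7 FPKM in white light and 2069.9 FPKM under UV-B. In whole seedlings, fewer root cells and less RNA of these genes per root cell cannot be told apart.

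The thalianol and marneral genes, triterpene clusters active in roots, were lower as well. All 6 tested members had the lower value under UV-B, 4 fell, and the median log2 ratio was -1.49. THAS1, thalianol synthase, fell from 11.4 to 6.13 FPKM, the modifying enzyme CYP705A5 fell from 21.9 to 7.98 FPKM, CYP708A2 fell by 0.77 on the log2 scale, and CYP71A16 of the marneral cluster fell from 4.37 to 1.52 FPKM. MRN1, marneral synthase, was listed at 1.53 FPKM in white light and 0.0321 FPKM under UV-B and did not pass. Major latex protein genes also fell, 4 of 8 tested, with from 208 to 81.3 FPKM for MLP34, from 322 to 184 FPKM for MLP28 and from 80.0 to 34.3 FPKM for MLP329, copies that resemble each other and may share reads. Suberin and Casparian strip genes of the root had 17 of 19 lower values, of which FAR1 (AT5G22500), a fatty acid reductase, alone fell, from 14.9 to 8.07 FPKM. The part of the root markers in the falls of aquaporins, triterpene genes, latex proteins and arabinogalactan proteins was not tested.

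In the cuticle, CER1, needed for wax alkanes, fell from 35.04 to 19.0 FPKM, alone among 30 tested wax and cutin genes, of which 25 had the lower value under UV-B. CER6 and CER3, of the same pathway, had log2 ratios of -0.15 and 0.04.

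**Figure D5:**
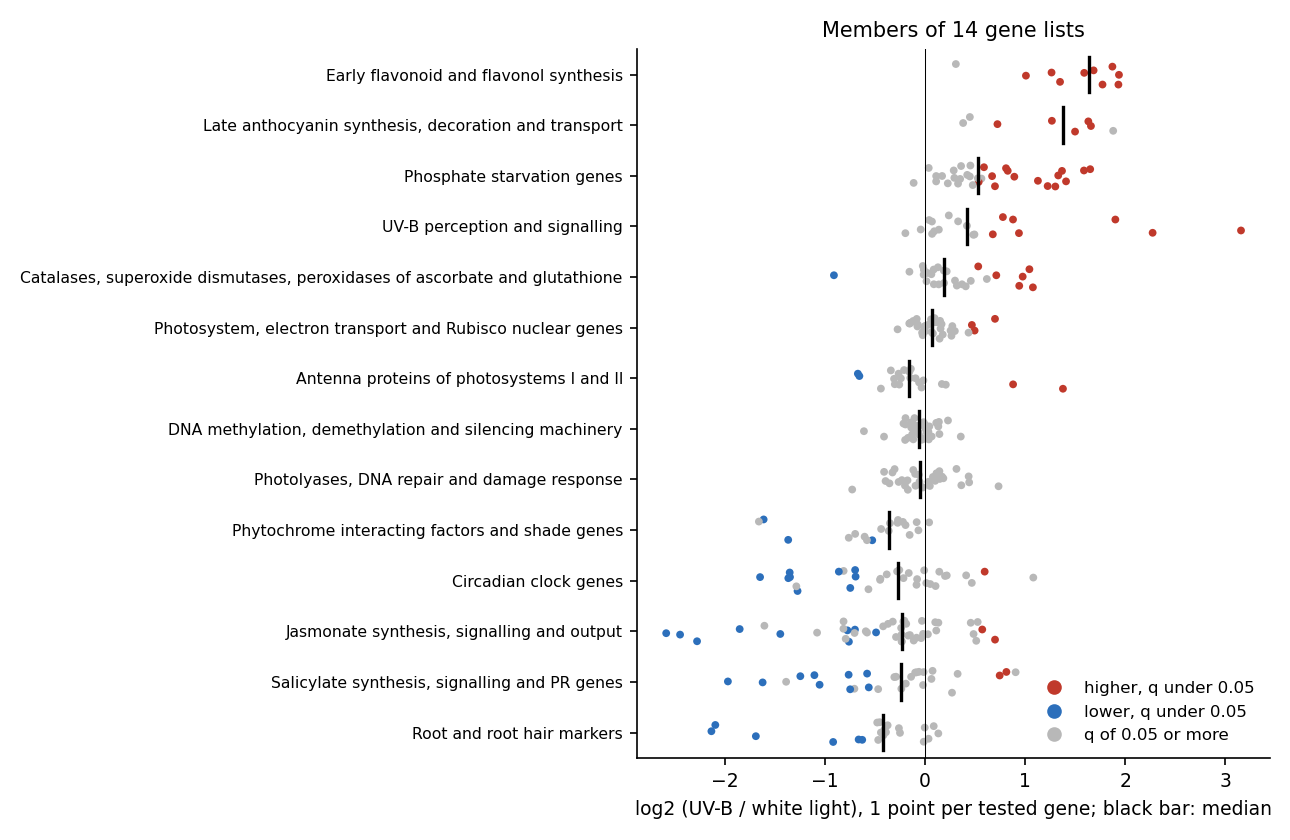
Each point is 1 tested gene of 14 lists, placed by its log2 ratio of UV-B to white light, red where it rose, blue where it fell and grey where q was 0.05 or more; black bars are list medians. Early flavonoid genes lie between 0.31 and 1.94, while DNA methylation and DNA repair genes lie around 0 with no call.

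The lists tied to the study's subject held no call. None of 37 tested genes of DNA methylation, demethylation and silencing passed in the authors' deposited table, where 0 had an unadjusted p under 0.05 and the lowest q was 0.451. DRM2, the main methyltransferase of RNA-directed methylation, had 7.03 FPKM in white light and 6.74 FPKM under UV-B. MET1 and CMT3, which maintain methylation, had log2 ratios of -0.09 and -0.07, and the demethylase ROS1 had 6.96 FPKM in white light and 6.43 FPKM under UV-B. Most of these genes were below 10 FPKM in both groups, a range in which 2.77% of entries or fewer were called. A list of this size may therefore hold no call. Argonaute genes (6 tested) and histone genes (20 tested) likewise had no call, and 0 and 0 of them had an unadjusted p under 0.05 in the authors' deposited table. With 3.85% of all tested entries called, lists this small may hold none.

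None of 32 tested genes of photolyases, DNA repair and the damage response passed, and 3 had an unadjusted p under 0.05 in the authors' deposited table. Over all tested entries 3.85% were called, and 1.27% of those between 2 and 5 FPKM, so a list of this size may hold no call. The photolyase genes UVR3 and PHR1 (AT1G12370), which reverse UV damage with the energy of blue light, had 2.52 FPKM in white light and 4.201 FPKM under UV-B (q = 0.0641) and 6.00 FPKM in white light and 7.47 FPKM under UV-B (q = 0.968) in the authors' deposited table. SMR5 and SMR7, cell cycle inhibitors induced by damage, had log2 ratios of -0.30 and 0.44, and neither passed. Mitotic and replication genes (22 tested) and heat shock genes (11 tested) had no call either, with 0 and 0 members at an unadjusted p under 0.05 in the authors' deposited table. At the same share of 3.85%, lists of these sizes may also hold none. Log2 ratios of the mitotic and replication genes ran from -0.38 to 0.16. No seed storage gene was tested, and their summed level was 1.13 FPKM in white light and 0.490 FPKM under UV-B.

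Irrespective of the lists, the 15 highest and 15 lowest log2 ratios were taken among called entries with no value of 0 and a larger value of 5 FPKM or more. After BAM5 and the ELIP genes, the highest held the flavonoid genes TT4, FLS1, F3H and TT5, and also 5 genes without a name in the annotation used. AT5G62210 (chromosome 5, 24986294 to 24987811) had a log2 ratio of 2.55, and AT2G23910 rose from 13.4 to 61.9 FPKM. AT1G03940 and AT5G17040 rose from 1.74 to 6.65 FPKM and from 2.05 to 7.45 FPKM, and the latter lies next to UGT78D2. AT1G03940 had been put forward for the anthocyanin list as 3AT1 and was left out because name and locus did not match. KAT5, a thiolase of fatty acid oxidation, rose from 36.9 to 137 FPKM, and NIT4, a nitrilase that detoxifies cyanide products, rose from 6.16 to 21.99 FPKM. The lowest included ORA47 (AT1G74930, chromosome 1, 28143851 to 28145058), with a log2 ratio of -2.58, and NATA1 (AT2G39030, chromosome 2, 16298110 to 16299205), an acetyltransferase, with -2.45. PCC1 and its neighbour AT3G22235 fell from 146 to 40.0 FPKM and from 62.2 to 19.4 FPKM. PLA2A, a patatin-like lipase, fell from 14.5 to 4.604 FPKM, CCL fell from 469.7 to 148 FPKM, and AT1G66100 fell from 256 to 73.1 FPKM.

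By absolute level, the 10 called entries with the largest difference included 5 for chloroplast proteins of photosynthesis. Of these LHCB1.2 went down from 5314 to 3340.1 FPKM. The Rubisco gene RBCS2B went up from 2797 to 3946 FPKM. LHCB1.4, TT4, CAT3, FED A, CAT2, CCL, FD1 and GRP7 completed this set, of which LHCB1.4, CAT3, CCL and GRP7 fell.

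Called genes also lay next to each other. Taking neighbouring protein-coding genes with calls in the same direction, there were 35 runs with 72 genes, 18 of them raised and 17 lowered, and 33 of the runs were pairs. The longer runs, of 3 genes each, both fell. The thalianol run holds CYP705A5, CYP708A2 and THAS1 (chromosome 5, 19434758 to 19461706), and the other holds AT1G52000, MBP2 and MBP1 (chromosome 1, 19333088 to 19352791), where the myrosinase-binding protein genes MBP1 (AT1G52040) and MBP2 fell from 25.9 to 8.98 FPKM and from 4.29 to 0.876 FPKM. Several pairs were copies of 1 gene, such as VSP1 and VSP2, BGLU21 and BGLU22, and MLP328 and MLP329, so that reads may be shared within a pair.

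Outside protein-coding genes calls were few, 14 in all. Transposon entries made up 34973 of the annotation, of which 445 were tested and 4 called, 3 higher and 1 lower. The transposon genes AT3G43955 and AT2G04460 rose from 1.28 to 3.66 FPKM and from 9.48 to 17.1 FPKM, AT3TE43615 rose from 9.37 to 19.4 FPKM (q = 0.0466 in the authors' deposited table), and AT1G35612 fell from 23.7 to 12.7 FPKM; all 4 overlap another entry. Of the annotated transposons 1878 were above 0 in white light and 1115 under UV-B, and the part of the lower depth under UV-B in this difference was not tested. The authors' separate list of transposons raised under UV-B holds 269 entries, of which 106 were tested in the comparison, 163 were not, and 3 had q under 0.05.

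Of 101 tested non-coding RNA entries 1 rose and 5 fell. AT3G57157 rose from 81.2 to 161 FPKM (q = 0.0115 in the authors' deposited table) and AT1G23052 fell from 17.0 to 7.67 FPKM. None of 214 antisense long non-coding RNAs and none of 36 microRNA precursors passed in the authors' deposited table, against 3.85% of all tested entries. By chromosome the called share varied from 3.48% on chromosome 3 to 4.12% on chromosome 5.

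At the lower end, 6 called entries were listed at 0 under UV-B and none at 0 in white light. The neighbouring peptide hormone genes CLE5 and CLE6 had 3.98 and 1.92 FPKM in white light. The others were AT5G44973, AT1G75945, AT5G57510 and AT1G09615, and no fold change is given for any of them.

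The drm1-2 drm2-2 double mutant in white light was compared by the authors with the same Col-0 white-light samples, so its ratios share that control. For the 15 highest genes named by the rule, its log2 ratio to Col-0 had a median of -0.10 and ran from -1.58 to 0.64, with 1 called, where 0.421% of all 20416 tested entries of that comparison were called. BAM5 had 1.42 FPKM in the mutant, 4.25 in that table's Col-0 column and 54.1 under UV-B. For the 15 lowest the median was -0.00 and the range -1.69 to 0.69, with 3 called, against the same share of all entries. PCC1 had 238 FPKM in the mutant and 40.0 under UV-B, on either side of its white-light value of 146 FPKM. AT1G66100 had 80.03 FPKM in the mutant and 73.1 under UV-B, both below its white-light value of 256 FPKM.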

How the data were processed

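RNA was measured in whole seedlings with a stranded mRNA kit, per the labels' protocols. Trimmomatic, HISAT2, BSMAP and Cufflinks were used on build TAIR10, per the submitters' processing notes, which list neither versions nor the assay each tool served. The authors deposited 1 pooled value per group of 2 libraries. The file headers do not name its unit, and the values were taken as FPKM from the Cufflinks layout of the deposited table and their range. The deposited p-values and q-values are the authors' own, and their q-values equal a Benjamini-Hochberg adjustment over the 20595 entries tested.

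From these values the log2 ratio of UV-B to white light was computed without a pseudocount, and entries with q under 0.05 were counted by list, biotype, level and position with Python 3.11.15, pandas 2.3.3 and numpy 2.4.6; figures used matplotlib 3.10.9. The call by q under 0.05 was tried on simulated data with added effects, while the counting by list, biotype, level and position was not. No test of replicates could be run beyond the authors' own, and no interval can be given for a pooled value. Names of genes were taken from RefSeq for TAIR10.1, which matched 37840 of 69252 identifiers, and none of its coordinates were used; coordinates are locus ranges of the deposited table, written 1-based, which can span overlapping entries.

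The 59 lists hold 1633 genes, 41 lists by locus and 18 by symbol; 21 further genes were left out because name and locus did not match. The comparison, the lists and their members were chosen with earlier results of these data known. Of the list members 1378 were tested and 205 called, and 588 called entries are in no list. Of the members 569 overlap another annotated entry, so their values are less certain.

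Genes were named by rule: UVR8, COP1, HY5, HYH, RUP1, RUP2 and TT4; the 15 highest and 15 lowest log2 ratios among called entries with no value of 0 and a larger value of 5 FPKM or more; in each list up to 5 called members per direction with at least 1 FPKM and 2 uncalled members of highest value; the 10 called entries with the largest difference in FPKM; and members of runs of 3 or more neighbours. Any further gene was picked with its values in view. The depth estimate used transposon entries of over 1200 bp that overlap no other entry, 26 under UV-B and 53 in white light. Their products of value and length in kilobases, from the lowest above 0.01 to 1.7 times that, were taken as 1 fragment in 1 of 2 libraries. Alternatives were a q threshold of 0.01, a 2-fold change also required, at least 1 FPKM, adjustment over protein-coding genes alone, centring on the median, and a pseudocount of 1 FPKM.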

Additional observations from a re-analysis of the deposited data

How the results depend on the processing

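The number of entries higher under UV-B went from 420 to 264 at a q threshold of 0.01 and to 112 when a 2-fold change was also required. The number of lower entries went from 373 to 255 and 134. Adjusting over protein-coding genes alone gave 417 higher and 368 lower, and neither a minimum of 1 FPKM nor centring on the median of all tested entries moved either count. Of 118 counts of higher or lower members in the lists, none moved beyond a set tolerance under these last 3 settings. At q 0.01, 25 did, and 59 did when a 2-fold change was required. That tolerance was wide, since the drop from 373 to 255 lower entries passed as the same. Smaller moves in the lists were therefore not counted. AOP2, a pseudogene among the 3 lowered aliphatic glucosinolate genes, drops out when protein-coding genes alone are adjusted. Among 299 named genes no log2 ratio changed sign with a pseudocount of 1 FPKM or with centring. Neither setting could have reversed a called entry. A pseudocount added to both values keeps the sign of a ratio, though it shrank ratios of genes near 0 FPKM. Centring moved log2 ratios by only 4.68e-05, so it could not move the counts above either. No replicate could be left out and no other test or normalization run, because each group has 1 pooled value. No paired analysis was possible because the replicates were pooled before the values were made. The white-light libraries were roughly estimated to be 2.57 times as deep as the UV-B libraries, and the part of this gap in the calls was not tested.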

Other observations

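Photorespiration genes, a list of 17 chosen after values were seen and therefore given without support from its count, leaned upward. All 16 tested members had the higher value under UV-B, 7 of them called, with a median log2 ratio of 0.39 against 0.00 over all tested entries. The glycine decarboxylase genes GLDP1 and GLDP2 rose from 201 to 310.3 FPKM and from 86.7 to 147 FPKM, the peroxisomal hydroxypyruvate reductase gene HPR rose from 541 to 757 FPKM (q = 0.0388 in the authors' deposited table), and the transport gene BOU rose from 65.3 to 96.9 FPKM. CAT2 and GLU1, described above, belong to the same list.

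Other families were likewise chosen after values were seen, so their counts lend no support either. Over all tested entries 2.04% rose and 1.81% fell. Of 9 tested methionine sulfoxide reductases of the B type 2 rose and 2 fell: MSRB6 and MSRB1 rose from 91.3 to 137 FPKM and from 132 to 188 FPKM while MSRB9 and MSRB7 fell from 72.5 to 41.1 FPKM and from 19.5 to 7.93 FPKM. Of 10 jacalin-like lectin genes tested 5 fell and none rose, among them JAL22 from 190.1 to 116 FPKM and JAL33 from 245 to 167 FPKM. Of 6 tested aldo-keto and alkenal reductases 4 rose, led by ChlAKR from 16.1 to 34.8 FPKM. Of 11 tested SWEET sugar transporter genes 3 rose and 1 fell; SWEET1 and SWEET2 rose from 22.5 to 52.1 FPKM and from 18.5 to 31.7 FPKM, and SWEET16 of the vacuole fell from 15.6 to 8.95 FPKM. Of 11 tested FtsH genes 2 rose, FTSH8 and VAR1, proteases that maintain photosystem II, from 77.6 to 135 FPKM and from 186 to 263 FPKM. Of 12 tested sulfate transporter genes 2 rose and 1 fell, and of 9 tested phosphate transporter genes 2 rose and 0 fell. Of 14 tested 3-ketoacyl-CoA synthases, which elongate fatty acids, 2 fell and 0 rose, and of 24 tested CLE peptide genes 2 fell and 0 rose. The CLE genes that fell were CLE5 and CLE6, both listed at 0 under UV-B.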
